A study of Homo sapiens with 38 samples.

Results

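The human type 2 cytokine locus on chromosome 5 holds the genes IL4, IL5 and IL13 together with RAD50, KIF3A and IRF1. The members described here are all lines of 3 deposited peak lists that overlap chr5:132431609-132787546 (GRCh38), which is the span of the 6 gene records plus 50 kb on each side, 355.9 kb in all. They number 95 of 168784 lines: 19 of 29009 GATA3 regions, 19 of 26205 BHLHE40 regions and 57 of 113570 H3K27ac regions. A region here is 1 line of a list, with a start, an end, a summit (its highest point) and a signal value, the authors' measure of enrichment.

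The series used chromatin immunoprecipitation with sequencing (ChIP-seq) in Jurkat, a human line grown from a T-cell acute lymphoblastic leukaemia, and held 38 samples in 19 groups of 2. The 3 groups used here were Ctrl_LV cells, carrying a control lentivirus, with antibodies against GATA3, BHLHE40 or acetylated lysine 27 of histone H3 (H3K27ac). All received PMA (50 ng/ml) plus ionomycin (500 ng/ml), which activate T cells, for 5 hours in the sample labels and 2 hours in the treatment protocol. The line is a leukaemia and not a type 2 helper T cell. Each list stands for the 2 samples of its group, so no value per sample, no spread between replicates and no test over samples can be given, and the depth behind the lists is unknown. Nothing in the labels says whether the 2 samples came from separate cultures.

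IL4, IL5 and IL13 encode the secreted cytokines of type 2 helper T cells, which drive antibody class switching to IgE, eosinophil growth and mucosal allergic responses. GATA3 is the transcription factor that defines this cell type and binds sites with the core GATA. The cytokine genes lie beside RAD50, a DNA repair gene whose distal part contains the locus control region of the cluster, and the noncoding RNA gene TH2LCRR is named for that element. BHLHE40 is a basic helix-loop-helix factor of activated lymphocytes that binds the E-box CACGTG, and H3K27ac marks active promoters and enhancers. IRF1 is an interferon-responsive transcription factor, and KIF3A is a kinesin motor subunit that works in cilia.

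The labelled cell type was checked against marker genes. H3K27ac regions lay within 1 kb of an end of the gene record at 7 of 7 T-cell markers (such as CD3D, CD3E, CD2 and LCK), 1 of 3 B-cell markers (CD79A, with a −log10 q of 3.08) and 0 of 6 myeloid, erythroid and liver markers. The share of all genes by this rule was not computed. By gene starts alone, 57.6% of 15843 protein-coding genes had an H3K27ac region within 1 kb. CD3D and CD3G had the same highest −log10 q (62.2), so 1 region may count for both. A GATA3 region stood at an end of the B-cell gene MS4A1.

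The starts of 4 genes are printed because they show different combinations of factor, acetylation and sequence word at single genes. Each sequence is 300 bases, 250 before to 50 after the RefSeq start (GRCh38.p14), in the direction of the gene, and it is 5′ to 3′. Capitals mark matches on either strand to CACGTG or to a GATA word, which is AGATAA or AGATAG, or the same with T as the first letter (TGATAA or else TGATAG). No GATA word here overlaps a CACGTG. The RefSeq promoter table matched 5 of the 6 genes, with 2 starts for IL13 and none for IL5. RAD50 lies at chr5:132556727-132557026 on the plus strand, IL13 at chr5:132657923-132658222 (plus, the second listed start), IL4 at chr5:132673739-132674038 (plus) and IRF1 at chr5:132490724-132491023 (minus).
RAD50: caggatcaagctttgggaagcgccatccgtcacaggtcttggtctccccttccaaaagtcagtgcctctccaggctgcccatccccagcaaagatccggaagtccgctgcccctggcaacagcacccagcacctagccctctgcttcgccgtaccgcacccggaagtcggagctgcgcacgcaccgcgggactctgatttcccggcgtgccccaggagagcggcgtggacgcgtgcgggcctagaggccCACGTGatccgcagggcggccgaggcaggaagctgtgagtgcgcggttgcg
IL13: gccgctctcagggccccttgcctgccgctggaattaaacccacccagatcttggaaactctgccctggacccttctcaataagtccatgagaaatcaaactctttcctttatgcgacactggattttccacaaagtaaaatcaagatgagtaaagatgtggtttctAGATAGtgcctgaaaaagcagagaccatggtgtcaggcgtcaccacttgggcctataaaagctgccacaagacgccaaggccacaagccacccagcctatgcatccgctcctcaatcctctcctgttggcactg
IL4: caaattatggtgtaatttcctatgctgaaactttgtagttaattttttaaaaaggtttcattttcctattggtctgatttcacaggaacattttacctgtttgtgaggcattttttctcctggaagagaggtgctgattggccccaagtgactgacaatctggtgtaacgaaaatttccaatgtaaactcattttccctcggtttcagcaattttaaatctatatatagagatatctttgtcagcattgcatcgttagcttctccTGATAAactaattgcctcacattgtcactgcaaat
IRF1: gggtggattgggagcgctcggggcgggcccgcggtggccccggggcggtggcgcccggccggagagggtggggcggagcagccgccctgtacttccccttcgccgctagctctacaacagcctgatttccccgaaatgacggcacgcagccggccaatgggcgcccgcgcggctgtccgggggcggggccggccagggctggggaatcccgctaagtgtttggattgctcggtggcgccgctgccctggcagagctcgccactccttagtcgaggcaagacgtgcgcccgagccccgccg

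RAD50 held the only CACGTG among the 6 promoters of the member genes. It spanned 132556976 to 132556981, on the RAD50 start itself at 132556977, 28 bp from a BHLHE40 summit and 35 bp from a GATA3 summit. Of all 35116 promoters of this length in the table, 7.26% held CACGTG, and of the 11437 that overlapped a BHLHE40 region 11.2% did, beside 1 of 3 among the member promoters. At IL13 the word AGATAG at 132658089 to 132658094 lay 11 bp from a GATA3 summit. At IL4 the word TGATAA at 132674004 to 132674009 lay 217 bp from one. The first listed IL13 start also held a GATA word, on the other strand, with its nearest GATA3 summit 1602 bp away. GATA words were present in 3 of the 6 member promoters, against 25.0% of all promoters and in 2 of the 5 that overlapped a GATA3 region, against 20.1% of 4927. IRF1 and KIF3A held neither kind of word in their 300 bases, although regions of both factors covered those bases. A match is a description of letters and not evidence of a binding site.

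The plot of signal value by position shows how the 3 lists were spread over the locus. GATA3 regions occurred at every member gene, BHLHE40 regions were dense around IRF1, and the H3K27ac regions with the highest signal values stood at the starts of IRF1, RAD50 and KIF3A and at the KIF3A end.

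**Figure D1:**
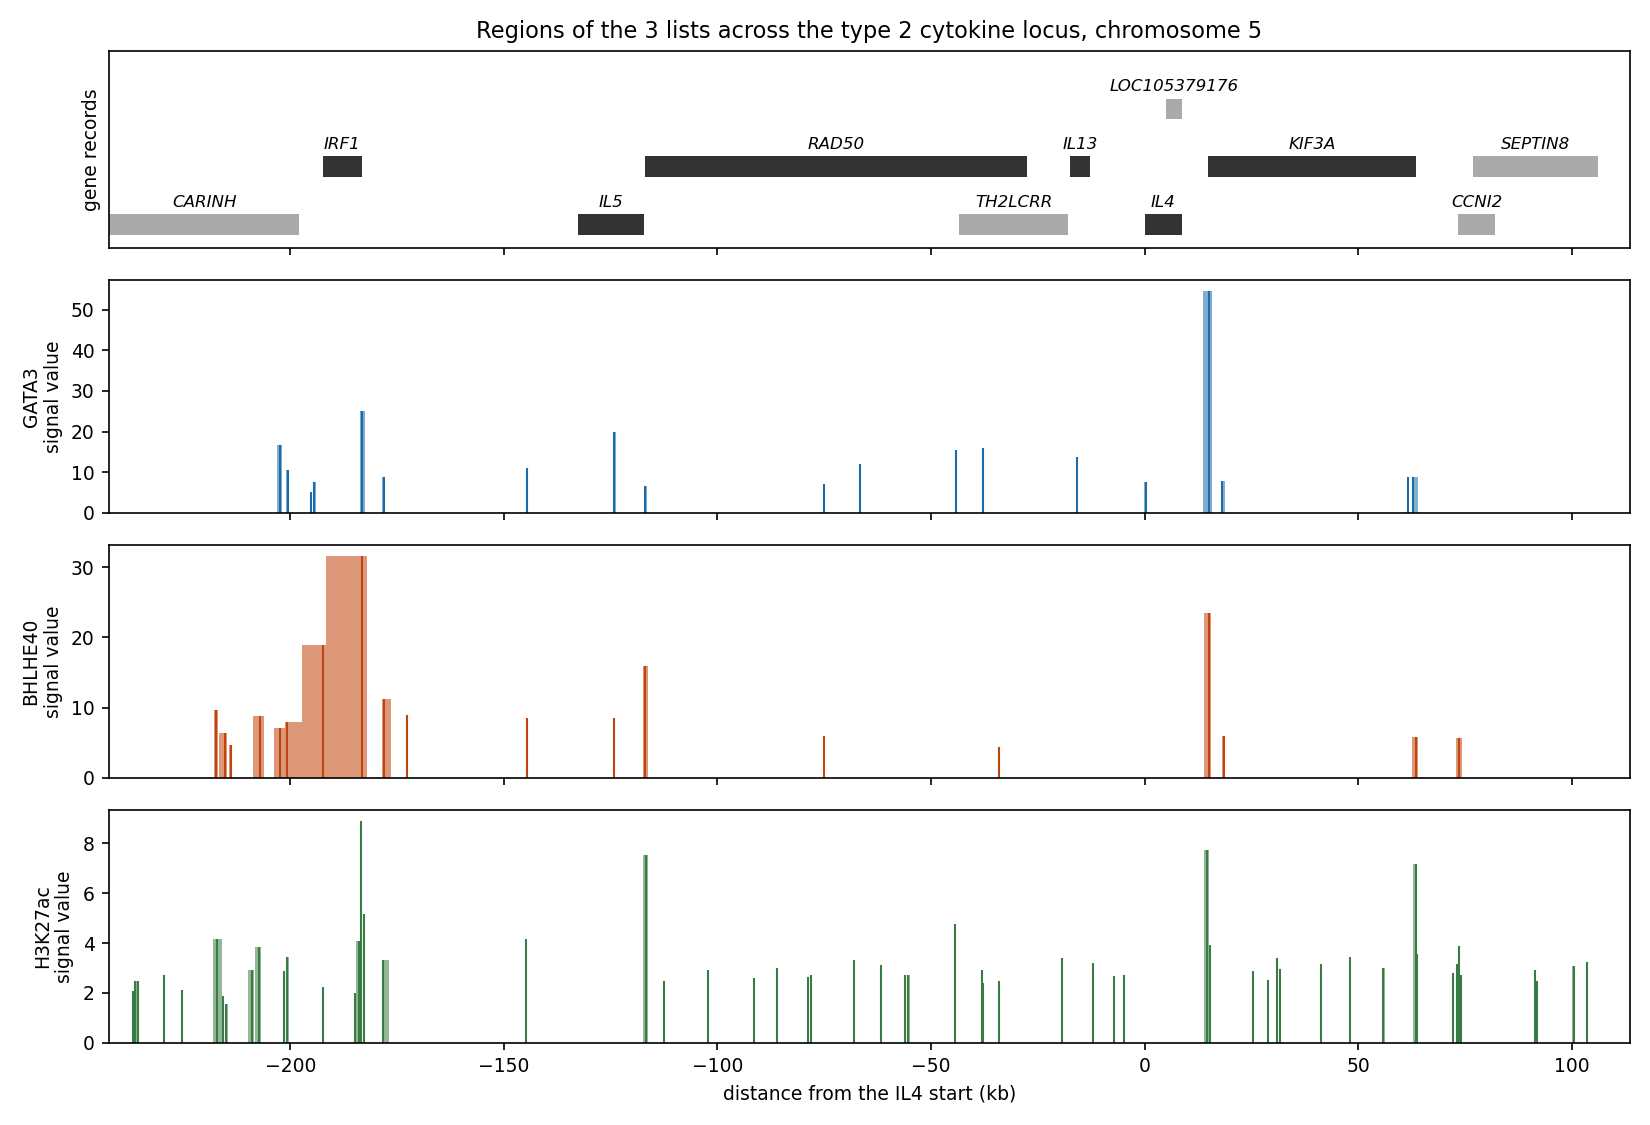
Signal value (vertical axes, in the authors' units, a separate scale per list) of every GATA3, BHLHE40 and H3K27ac region against distance from the IL4 start in kb, with gene records on top (dark, the 6 member genes). Each shaded bar spans a region, widened to 0.5 kb where narrower, and the thin line marks its summit. The highest GATA3 bar, 54.6, stands beyond IL4 at the KIF3A end, and the highest BHLHE40 bar, 31.6, over IRF1.

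The cytokine genes IL13 and IL4 carried GATA3 at their starts without the other 2 lists. At IL13, which encodes a cytokine of mucus and airway responses, GATA3 occupied 132657887 to 132658317, where its signal value was 13.7 (rank 11144 of 29009). The summit lay 95 bp before the second IL13 start, at 132658173. At IL4, the cytokine of IgE switching, GATA3 occupied 132673943 to 132674377. Here the signal value was 7.56 (rank 23183) and the summit lay 237 bp inside the gene. The score of 612 was the lowest of the 19, on the authors' scale that runs up to 1000 for regions that repeat best between samples, and 14 of the 19 GATA3 and 13 of the 19 BHLHE40 regions had 1000. No BHLHE40 and no H3K27ac region overlapped either gene record. The distance to the nearest H3K27ac region was 682 bp from the end of the IL13 record, 1840 bp from the first IL13 start, 3491 bp from the second and 4748 bp from the IL4 start. The 12.9 kb between the IL13 and IL4 records held no factor region and 3 H3K27ac regions with signal values of 2.68 to 3.22 and a −log10 q of at most 3.18.

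IL5, the eosinophil growth cytokine, had a different arrangement. Its record, 132541445 to 132556815, includes 3 predicted transcripts besides 1 curated transcript. No start or strand was listed for IL5, so a place inside the record may lie outside the curated transcript. Inside it, a GATA3 region at 132549487 to 132550158 had a signal value of 20.0 and ranked 6527, the third-strongest GATA3 signal of the locus. A BHLHE40 region at 132549567 to 132549990 (signal value 8.58) overlapped it, with summits 12 bp apart. This pair overlapped no H3K27ac region. At the lower-coordinate end of the IL5 record no region of any list lay within 8042 bp. The higher-coordinate end lay in the regions of all 3 lists that also cover the RAD50 start. A further shared place lay outside genes, 11980 bp below the IL5 record. There the GATA3 region at 132529241 to 132529662 (signal value 11.1) and the BHLHE40 region at 132529230 to 132529647 (signal value 8.48) had summits 3 bp apart. It overlapped an H3K27ac region with a −log10 q of 6.37.

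The strongest GATA3 region of the locus lay past IL4, across the end of KIF3A that faces it. KIF3A is transcribed towards IL4, so this end is the terminal part of the gene. The region spanned 132687747 to 132689704, began 5069 bp beyond the IL4 record and had its summit at 132689013, 201 bp inside the KIF3A record. The signal value of 54.6 ranked 1233 of 29009 (percentile 95.8), and by −log10 q, 1380, it ranked 319. The BHLHE40 region there, 132687852 to 132689611, reached 23.5 (rank 2242 of 26205) and a −log10 q of 501 (rank 533). The summits lay 18 bp apart. H3K27ac formed 2 regions, 132687806 to 132688947 with a signal value of 7.74 and 132689027 to 132689550 with one of 3.91. Both factor summits fell in the 79 bp between them. About 3 kb farther into KIF3A a weaker pair lay without H3K27ac, with signal values of 7.77 for GATA3 and 5.93 for BHLHE40 and summits 311 bp apart.

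Most of the rest of the KIF3A body was empty of both factors. From 132692809 to 132735413, 42.6 kb, no factor region was listed, the longest such stretch of the locus. The 7 H3K27ac regions in it had signal values of 2.50 to 3.44 and a −log10 q of at most 3.78. At the KIF3A start, 132737546, all 3 lists returned. The GATA3 region there (132736523 to 132737923, signal value 8.76) had its summit 704 bp inside the gene, while the BHLHE40 summit (132736670 to 132737933, signal value 5.76) lay 84 bp inside it. Another GATA3 region, with a signal value of 8.72, lay 1945 bp inside the gene without the other lists. The H3K27ac region at the start reached 7.18 (rank 6309 of 113570), and a smaller one just before it had a signal value of 3.56.

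RAD50 covers 89.4 kb and contains most of the space between IL5 and IL13. At its start the BHLHE40 region (132556548 to 132557663) had a signal value of 15.9, ranking 5199, and the GATA3 region (132556762 to 132557542) one of 6.60, ranking 25719. The H3K27ac region there had a signal value of 7.53 and ranked 5599. Within the body, a pair at about 42 kb from the start had signal values of 7.01 for GATA3 and 5.93 for BHLHE40, with summits 67 bp apart and no H3K27ac. Farther along lay 3 GATA3 regions without BHLHE40. The first spanned 132607089 to 132607481 (signal value 11.9) without H3K27ac, 50299 bp into the gene at its summit. The others spanned 132629631 to 132630076 (signal value 15.5) and 132635824 to 132636320 (signal value 16.0), 72853 and 79100 bp into the gene, in the distal part that is known for the locus control region. The last of these lay inside the TH2LCRR record (132630589 to 132656154) and the other just outside it. Both overlapped H3K27ac, with a −log10 q of 10.2 at the first and of 3.92 and 1.98 at the second.

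BHLHE40 was almost missing from this distal part of RAD50. One region, 132639615 to 132640085, lay inside TH2LCRR with a signal value of 4.40 (rank 25235 of 26205) and a score of 550. No GATA3 region overlapped it, and the H3K27ac region beneath it had a −log10 q of 2.47. From the end of that region to the one beyond IL4 no BHLHE40 region was listed, a stretch that takes in the end of RAD50, IL13 and IL4. None of the 3 lists had a region within 1 kb of any of the 3 listed TH2LCRR starts. One of these, at 132656154, had CACGTG within its promoter.

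IRF1 was the member gene with the largest share of its record under BHLHE40 regions (98.5%) and under H3K27ac regions (21.2%). A BHLHE40 region of 9649 bp, 132482428 to 132492076, ran from inside the gene past its start, reaching 31.6 (rank 1201, percentile 95.4). Its summit lay 95 bp before the IRF1 start at 132490773. A second one of 5508 bp, 132476781 to 132482288, covered the terminal end with its summit 85 bp inside the record, a signal value of 18.9 and a weak H3K27ac region (−log10 q of 3.43) beneath it. These 2 of 19 are among the 95 BHLHE40 regions of at least 5000 bp, 0.363% of the list. BHLHE40 covered at least 90% of the record at 1 of the 6 member genes, beside 145 of 20037 protein-coding genes (0.724%). Of records of at least 9000 bp it did so at 1 of 4 member genes, beside 6 of 14808 (0.0405%, IRF1 included). These limits of length and cover were chosen after the IRF1 values were seen.

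GATA3 at IRF1 was narrower than the BHLHE40 regions there. At 993 bp it was wider than the median GATA3 region of the locus, 579 bp. Its region, 132490425 to 132491417, reached 25.0 (rank 4715 of 29009, percentile 83.7), below only the region at the KIF3A end among the 19. The summit lay 64 bp inside the gene and 159 bp from the BHLHE40 summit. GATA3 covered 3.81% of the IRF1 record, less than of IL13 (9.39%), KIF3A (6.39%), IL5 (4.72%) or IL4 (4.48%) and more than of RAD50 (2.55%). This share also depends on the length of the record. H3K27ac formed a row of 4 regions around the start. The one that covers the start, 132490393 to 132490806, had a signal value of 8.89 and a −log10 q of 352. The one before it, 132490999 to 132491483, had 5.17 and 144, and the BHLHE40 summit fell in the 192 bp between these 2. The next one into the gene, 132489456 to 132490316, had a −log10 q of 77.4, and the last 9.58.

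**Figure D2:**
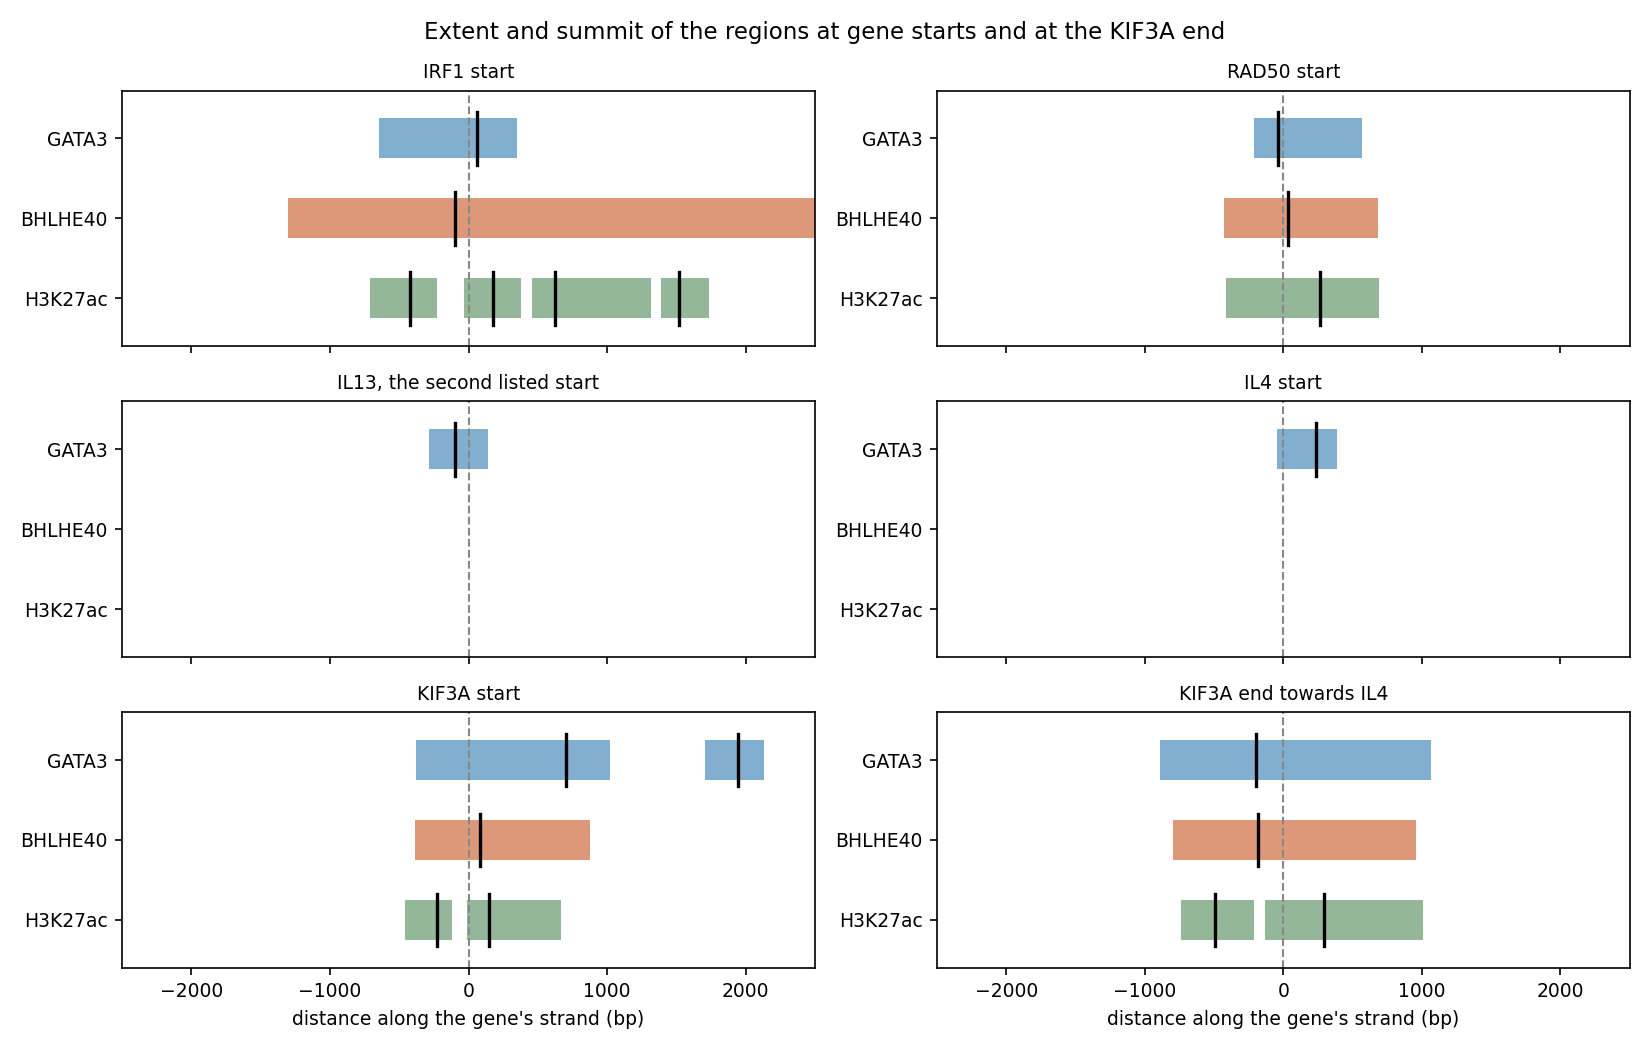
Extent (coloured bars) and summit (black ticks) of GATA3, BHLHE40 and H3K27ac regions near 5 gene starts and the KIF3A end facing IL4. The horizontal axis is the distance in bp along the gene's strand, with the dashed line at the start or end. IL13 and IL4 show a GATA3 bar alone, whereas IRF1, RAD50 and KIF3A show bars of all 3 lists.

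On both sides of IRF1 BHLHE40 continued. Between the window's lower end and the IRF1 record there were 6 BHLHE40 summits, with signal values of 4.64 to 9.72, and 4 GATA3 summits, with signal values of 5.09 to 16.8. The 6 BHLHE40 summits lay inside CARINH (also named IRF1-AS1), a noncoding RNA gene beside IRF1. All 4 GATA3 regions overlapped BHLHE40. Inside CARINH the factors shared 2 places, with summits 103 and 21 bp apart. The GATA3 signal values at these places were 16.8 and 10.6. The other GATA3 regions lay under the wide BHLHE40 region at the IRF1 end. The 4 BHLHE40 regions farther from IRF1 had no GATA3, and 3 of them overlapped H3K27ac, including the regions at 132455909 to 132458117 (−log10 q of 54.3) and 132465845 to 132467242 (−log10 q of 62.9). Beyond the IRF1 start, about 5 kb away, the pair at 132495527 to 132496170 (GATA3, signal value 8.83) and 132495410 to 132497512 (BHLHE40, signal value 11.3) had summits 2 bp apart and H3K27ac with a −log10 q of 35.8. A lone BHLHE40 region with a signal value of 8.99 lay 10533 bp beyond the IRF1 record.

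Counted by gene, all 5 member genes with a listed start had a GATA3 region within 1 kb of a start. Over all 15843 protein-coding genes with a listed start the share was 23.7%. IL13 counted through its second start, as the first lay 1365 bp from the region. At a score of at least 830 the count was 4, without IL4, whose region scored 612. The share of all genes at that score was not computed. BHLHE40 and H3K27ac regions lay within 1 kb of a start at the same 3 of 5 genes, IRF1, RAD50 and KIF3A, against 49.6% and 57.6% of all such genes. Regions of all 3 lists were found at these 3, against 21.9% of genes. The 5 genes are neighbours in 1 locus and not independent, and no test of this share was made.

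The locus held more regions per length than the whole lists. Densities per 100 kb were 5.34 for GATA3, 5.34 for BHLHE40 and 16.0 for H3K27ac, against 0.94, 0.849 and 3.68 over the 3086.4 Mb spanned by gene records on the chromosomes. The ratios were 5.68, 6.29 and 4.35. That span takes in the space between genes, whereas the window was set around genes. The windows compared below were denser than the whole lists too, for each list. Most of these regions were not strong ones. GATA3 had a median signal value of 10.6 (11.2 over its whole list), BHLHE40 8.48 (9.35) and H3K27ac 2.94 (3.31). The percentile of a region is the share of its own list with an equal or lower signal value. Its median was 45.7 over the GATA3 regions, 42.4 over the BHLHE40 regions and 28.8 over the H3K27ac regions, and 1, 2 and 4 of them lay in the top 10% of their lists. Ranked by −log10 q instead, the H3K27ac median was 59.9.

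**Figure D3:**
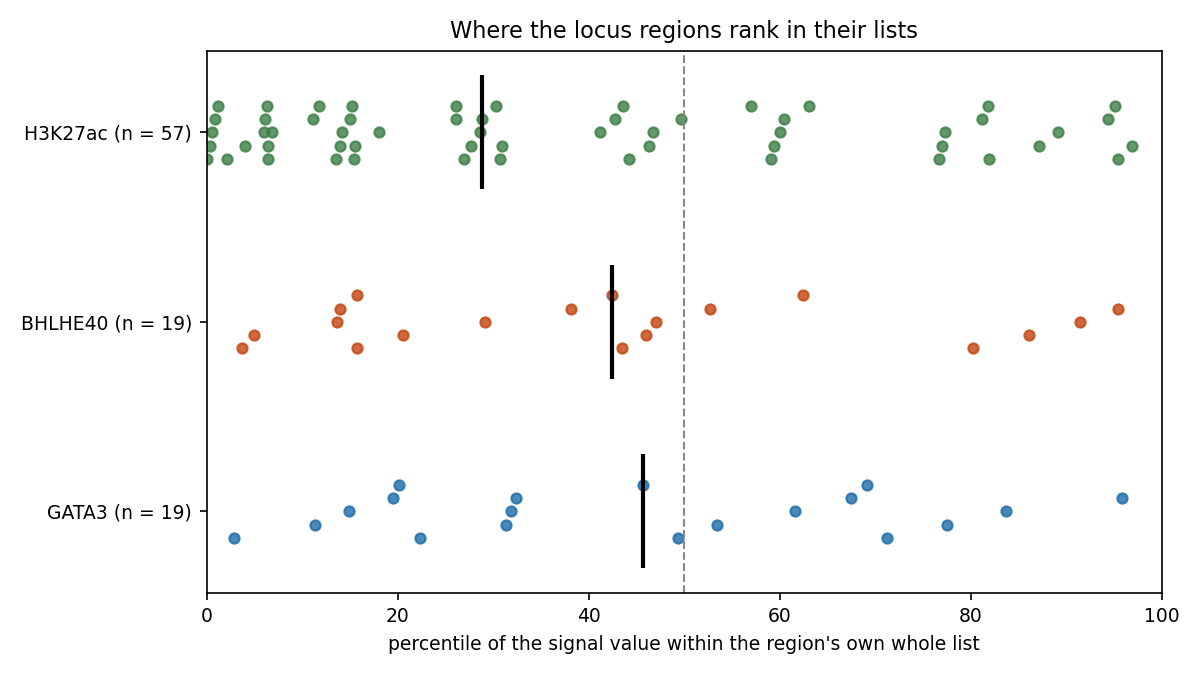
Percentile of the signal value within the region's own whole list (horizontal axis) for each region of the locus, by list. Vertical black lines mark the medians (45.7, 42.4 and 28.8 for GATA3, BHLHE40 and H3K27ac), the dashed line marks 50, and the vertical scatter only separates points.

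Overlap of at least 1 bp between the lists was near the whole-list share for most pairs. BHLHE40 overlapped 13 of 19 GATA3 regions (68.4%, 95% Wilson interval 46.0% to 84.6%), against 48.7% in the whole list. H3K27ac overlapped 9 of 19 (47.4%, interval 27.3% to 68.3%), against 49.1%, and both overlapped 7 of 19, or 36.8%, against 37.7%. Of the BHLHE40 regions, 12 of 19 overlapped GATA3 (63.2%, interval 41.0% to 80.9%, against 53.0%), 14 of 19 overlapped H3K27ac (73.7%, interval 51.2% to 88.2%, against 76.4%), and 9 of 19 both (47.4%, against 41.1%). With the summit itself required to lie in an H3K27ac region, the shares were 5 of 19 for GATA3 (26.3%, against 33.3%) and 9 of 19 for BHLHE40 (47.4%, against 55.4%). These intervals hold the whole-list shares and cover counting only, since neighbouring regions are not independent.

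H3K27ac regions of the locus coincided with a factor more often than the list did, as did those of the 5 windows compared below. A GATA3 or BHLHE40 region overlapped 26 of 57 (45.6%, interval 33.4% to 58.4%), against 26.4% of the whole list. Such a region overlapped 13 of 24 in the CD69 window, 7 of 16 at IL2 and 7 of 18 at TNF. At IFNG it was 3 of 6 and at CSF2 9 of 14. In the locus, a single wide BHLHE40 region could overlap several of the 26, as with the row around the IRF1 start. The 26 are therefore not separate places. A −log10 q of 5 or more was reached by 19 of 57 (33.3%), against 25.1%. All 19 overlapped a factor (interval 83.2% to 100%), against 70.0% of such regions in the list. The 2 BHLHE40 summits and the 1 GATA3 summit in a gap of at most 500 bp between H3K27ac regions, described above, compare with 8.39% and 3.99% of the summits in each list, or 10.5% and 5.26% in the locus. The gap limit was set after the summits were seen.

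**Figure D4:**
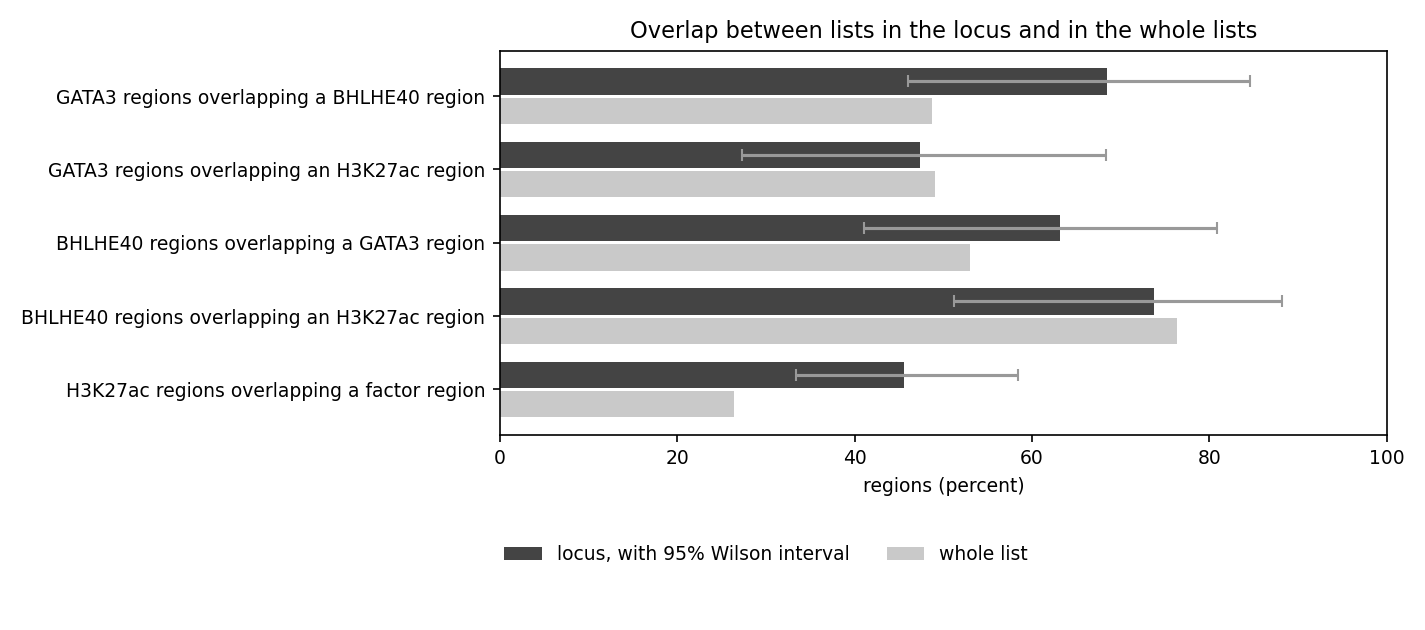
Percent of regions that overlap another list by at least 1 bp (horizontal axis) in the locus (dark bars, with 95% Wilson intervals over 19 GATA3, 19 BHLHE40 or 57 H3K27ac regions) and in each whole list (light bars). The interval leaves out the whole-list value for H3K27ac regions with a factor, 45.6% against 26.4%, and holds it for the other 4 pairs. The intervals cover counting only, since neighbouring regions are not independent, and no test was made.

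Where GATA3 and BHLHE40 overlapped, the distance between their summits ranged from 2 to 2780 bp. The median distance over the 13 shared GATA3 regions was 68 bp (95% interval of the median 12 to 620 bp), beside 35 bp over the whole list, and 5 of 13 (38.5%) lay within 50 bp, beside 61.5% over the whole list. The closest were the pairs 5 kb beyond the IRF1 start and below IL5, at 2 and 3 bp. The farthest, at 2780 and 2151 bp, were 2 weak GATA3 regions (signal values 5.09 and 7.5) under the wide BHLHE40 region at the IRF1 end.

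**Figure D5:**
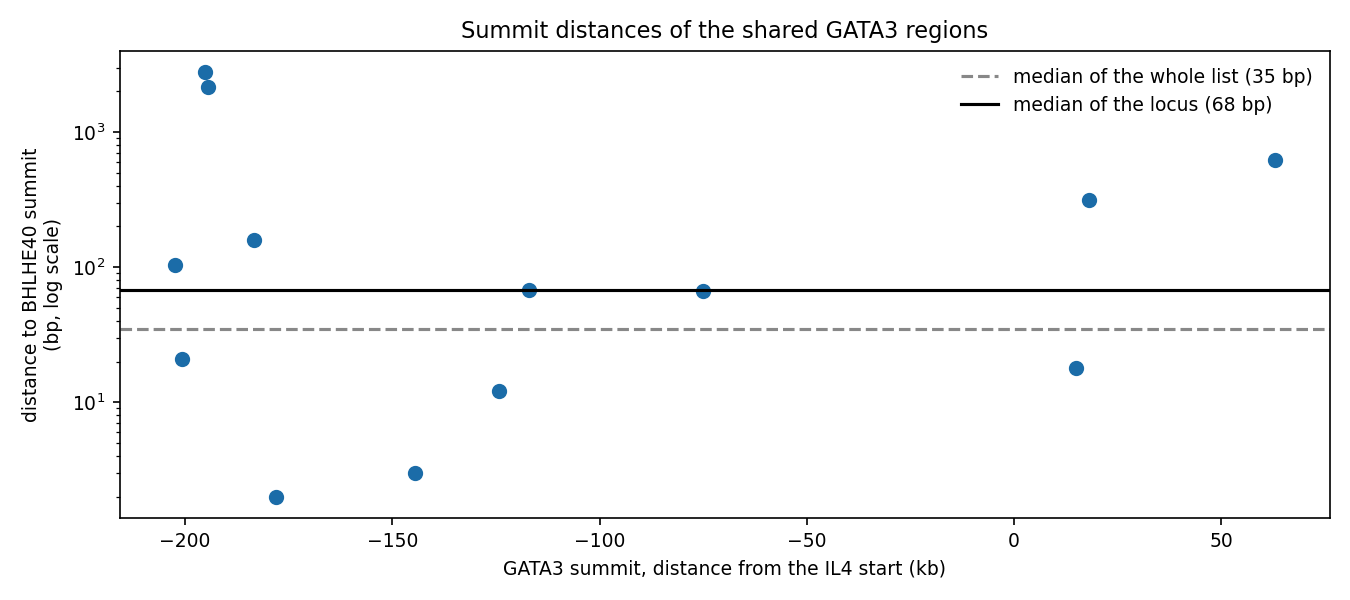
Distance in bp (log scale) from the GATA3 summit to the nearest BHLHE40 summit for the 13 GATA3 regions of the locus that overlap BHLHE40, against position relative to the IL4 start in kb. The solid line is their median, 68 bp, and the dashed line the median of all shared GATA3 regions, 35 bp.

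The same 50 kb rule around other activation genes gave values to set beside these. The strongest GATA3 signal value was 141 in the window of IL2, the T-cell growth cytokine, 96.1 at CD69, an activation marker, 89.3 at IFNG, the type 1 cytokine, 79.9 at CSF2, which encodes GM-CSF, and 42.8 at TNF, against 54.6 at the type 2 locus. GATA3 densities per 100 kb, in the same order, were 6.65, 11.1, 4.76, 12.7 and 9.73, against 5.34. BHLHE40 densities were 4.75, 6.46, 2.86, 9.77 and 7.78, against 5.34. H3K27ac densities were 15.2, 22.1, 5.72, 13.7 and 17.5, against 16.0. The windows differ in length, from 102.4 to 108.4 kb against 355.9 kb, each is 1 place, and no test was made. The CSF2 window ends 305.4 kb below the type 2 locus on the same chromosome.

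Other genes of the type 2 pathway were counted from a list of 24. GATA3 regions lay within 10 kb of 19 of 24 records, against 53.4% of 20037 protein-coding genes. Counting only regions that overlap the record itself, GATA3 was found at 11 of 24 (45.8%), against 40.8%. BHLHE40 regions lay near 17 (against 65.4%), H3K27ac regions near 20 (against 82.1%) and all 3 near 15 (against 46.5%). Counted as shares of the 24, these are 79.2%, 70.8%, 83.3% and 62.5%. A longer record takes in more regions, and record length was not matched between the 24 and all genes. The signal values that follow are the highest within 10 kb of each record. Such a region may lie at a neighbouring gene, and the STAT5A and STAT5B records overlap each other. Among receptors, IL4R, which binds IL-4 and IL-13, had a BHLHE40 region with a signal value of 70.9. IL13RA1 and IL5RA had no region of any list within that distance. PTGDR2, a prostaglandin receptor of type 2 cells, had signal values of up to 140 for BHLHE40 and 48.6 for GATA3. Among signalling genes, STAT5A reached 103 for GATA3 and 80.0 for BHLHE40, and STAT6, which transmits the IL-4 signal, 37.3 and 17.4. The GATA3 gene itself reached 75.8 and 33.2. IRF4 had no factor region, and the type 2 cytokine gene IL9 had a single GATA3 region with a signal value of 9.08 and no region of the other lists.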

How the data were processed

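The 3 deposited peak lists used were in the narrowPeak layout, for Ctrl_LV Jurkat cells with GATA3, BHLHE40 or H3K27ac antibodies. MACS2 and bcl2fastq 2.20 are named in the submitters' processing notes, with hg38 as the build, while the aligner and any input control are not given in the sources used here. By the deposited list names, the factor lists were limited to an irreproducible discovery rate (IDR) of 0.05 and the H3K27ac list came from pooled samples. The deposited score of the factor lists rises with repeatability up to 1000. The signal value is the authors' enrichment per peak, on a scale whose reference is not given in the sources used here. The −log10 q was deposited too and comes from the authors' peak caller. Ranks were taken within 1 list only. The sequencing depth is unknown.

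Starts of lines were converted to 1-based positions. A line that overlapped the window counted as a member, and lines shared a place when they overlapped by at least 1 bp. Gene records, starts and promoter sequences came from RefSeq (GRCh38.p14). Exons, introns and untranslated parts were not told apart. Shares carry 95% Wilson intervals and medians carry intervals from binomial order statistics, both for counting error only. Overlap, distance and word-search functions were tested on simulated data. The work used Python 3.11.15 with pandas 2.3.3, numpy 2.4.6 and scipy 1.17.1, and figures were drawn with matplotlib 3.10.9.

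The rule for naming took every factor region of the window and H3K27ac regions that overlap one, lie within 1 kb of a member gene's start or end or are among the 5 with the highest −log10 q. Some of these H3K27ac regions enter by their counts only. The members, lists and settings were chosen with earlier results of these data known. The alternatives were stricter scores (at least 830, an IDR of 0.01), an H3K27ac minimum of 5 in −log10 q, other flanks and distances, other definitions of overlap, ranks by −log10 q and shorter promoters. The other 16 groups were not analysed here.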

Additional observations from a re-analysis of the deposited data

How the results depend on the processing

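Across 23 results, 60 alternative values were computed. Of these, 49 stayed within the counting interval or within 1.5 times the reported count, and 11 moved beyond it. Whether a direction reversed was not checked. Without the flanks the locus held 12 BHLHE40 and 36 H3K27ac regions, and 83.3% of those BHLHE40 regions overlapped GATA3. A −log10 q of at least 5 left 19 H3K27ac regions in the locus and 30 instead of 78 in the 5 compared windows, and 100% of the 19 overlapped a factor. Requiring the summit itself to lie in an H3K27ac region lowered the share to 26.3% for GATA3 and 47.4% for BHLHE40. Ranking by −log10 q moved the median percentile of H3K27ac to 59.9. Within 5 kb of a start, 5 member genes had H3K27ac. Regions that overlap the gene record itself left 11 of 24 pathway genes with GATA3, against 40.8% of all genes. By construction, a shorter window, a minimum, a stricter overlap rule or a wider distance can move a count in a single direction only. This does not fix the shares of 83.3% and 100% or the ranking, and the cause of those changes was not tested. A score of at least 830 kept 15 GATA3 and 15 BHLHE40 regions, and left 4 member genes with a GATA3 region within 1 kb of a start. The unknown depth limits each count, since deeper samples list more weak regions.

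No paired analysis was possible because the 2 samples of a group share 1 list without values of their own. The lists also gave no way to leave out a single replicate.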

Other observations

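The part of the window beyond the KIF3A start, 50.0 kb long, held no GATA3 summit. A BHLHE40 region at 132746890 to 132748353, with a signal value of 5.71 and a score of 589, had its summit 67 bp inside CCNI2, a cyclin-like gene. It overlapped H3K27ac regions, the strongest of which had a −log10 q of 7.24. SEPTIN8, a septin cytoskeleton gene, had an H3K27ac region 172 bp from a listed start with a −log10 q of 3.39 and no factor region in its record. Base composition differed between the member promoters. The IL4 promoter had 35.3% G and C and 3 CG dinucleotides and the second IL13 promoter 50.3% and 6, whereas IRF1 had 73.7% and 36 and RAD50 66.7% and 27. Over 35116 promoters the medians were 58.7% and 14.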
